A study of Mus musculus with 11 samples.

Results

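Meis1, Hoxa5, Hoxa7, Hoxa9, Hoxa10, Hoxb4, Hlf, Mecom and Nkx2-3 encode transcription factors of the Hox, Meis and related kinds. They were followed on every probe annotated to them, which made 18 of the 45281 probes on the array and 9 of the 19057 genes with a named probe. Expression had been measured on 11 Illumina MouseWG-6 v2 bead arrays of cells sorted from the endosteal region of C57BL/6 mouse bone marrow, the zone next to the bone surface. The HSC group (n = 2) held haemopoietic stem cells, gated as LSK CD150+ CD48-, that is, lineage-negative Sca-1+ Kit+ cells with CD150 and without CD48. The other groups held cells positive for FITC-AGE, that is, for a reagent named AGE in the labels and tagged with fluorescein. They were split by CD31, an endothelial adhesion molecule that blood cells also carry, and by B220, a B cell form of CD45, into 3 fractions of 3 arrays each, named CD31+ B220+, CD31+ B220- and CD31- B220- after the gate. The labels call these 3 fractions scavenger endothelial cells, give no treatment, and say that some RNA samples were pooled without naming them. For the last fraction the source name starts with HSC while the title does not, and titles were followed here.

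Hox genes lie in chromosomal clusters and encode homeodomain proteins that set positional identity in the embryo, and several Hoxa and Hoxb genes are also active in early blood cells. Meis1, a homeodomain protein of the TALE class, binds DNA together with Hox and Pbx proteins. Hlf, a leucine zipper factor of the PAR family, and Mecom, a zinc finger factor also known as Evi1, are known for their part in keeping blood stem cells, and Nkx2-3 is a homeobox factor known from the vessels of spleen and gut.

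Of the 9 genes, 7 had a probe detected on at least 2 arrays and were tested among 11381 genes. Hoxa10 and Hlf had none. A probe counted as detected at a detection p under 0.05, taken as 1 minus the deposited score, and some probes without a transcript pass by chance at that level. Levels are log2 of background-corrected, quantile-normalized intensity, and were compared between groups within 1 probe, never between probes.

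The promoters of the 9 genes matched 11 RefSeq windows of the 250 bases before a start in the mouse build GRCm38.p6, with a pair of starts each for Hoxa10 and Mecom. Shown are Meis1 (chr11:19018970-19019219, minus strand), Hoxa5 (chr6:52204588-52204837, minus strand), Hoxa9 (chr6:52227371-52227620, minus strand) and Nkx2-3 (chr19:43612075-43612324, plus strand), because these genes were all high in HSC and differed in where else they were detected. Capitals mark the CG dinucleotide, the site of DNA methylation.
Meis1: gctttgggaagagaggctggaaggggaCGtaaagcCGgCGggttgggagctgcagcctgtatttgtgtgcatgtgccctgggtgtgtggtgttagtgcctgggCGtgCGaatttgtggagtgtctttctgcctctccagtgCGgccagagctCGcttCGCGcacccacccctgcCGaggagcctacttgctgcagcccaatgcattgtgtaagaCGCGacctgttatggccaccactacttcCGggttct
Hoxa5: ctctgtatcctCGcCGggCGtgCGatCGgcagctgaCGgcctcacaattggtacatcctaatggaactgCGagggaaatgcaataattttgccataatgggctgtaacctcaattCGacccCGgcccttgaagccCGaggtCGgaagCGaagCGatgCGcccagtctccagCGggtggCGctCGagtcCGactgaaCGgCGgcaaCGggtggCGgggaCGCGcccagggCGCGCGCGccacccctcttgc
Hoxa9: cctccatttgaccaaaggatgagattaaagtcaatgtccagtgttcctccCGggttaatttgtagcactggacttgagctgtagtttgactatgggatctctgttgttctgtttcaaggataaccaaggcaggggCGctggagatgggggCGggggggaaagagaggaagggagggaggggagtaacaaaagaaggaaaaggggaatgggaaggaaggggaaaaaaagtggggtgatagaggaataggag
Nkx2-3: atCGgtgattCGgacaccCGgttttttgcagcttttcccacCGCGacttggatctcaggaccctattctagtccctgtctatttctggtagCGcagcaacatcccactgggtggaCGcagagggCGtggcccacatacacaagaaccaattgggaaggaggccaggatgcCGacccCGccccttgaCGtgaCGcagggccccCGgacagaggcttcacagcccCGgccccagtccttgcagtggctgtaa
The Hoxa5 window held 28 CG, that of Nkx2-3 14 and that of Meis1 13, against a median of 6 over 32841 promoter windows. The Hoxa9 window held 3, and that of Hoxa7 in the same cluster 7. Short motifs were searched on both strands. The Hox-Pbx motif TGATTNAT, the PAR motif TTANGTAA and the Evi1 motif GACAAGATA matched none of the 11 windows, and matched 2.83%, 2.06% and 0.107% of all windows. The Meis motif TGACAG matched 1 window, that of a Mecom start, 86 bases before it, and 15.9% of all windows. The Nkx2 motif TNAAGTG matched the same Mecom window 82 bases before the start, overlapping the Meis match, and the Hoxb4 window 33 bases before the start, and it matched 10.1% of all windows. Such matches describe letters and not binding.

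Before normalization the 75th percentile of intensity was 376.8 to 450.5 on the HSC arrays and 145.9 to 211.6 on the others, so brightness moved with the HSC comparisons. Marker genes of other cell types moved with the fractions. The marker sums given here are of background-corrected, normalized intensity. The sum of 6 B lineage markers was 42800 to 43300 in CD31+ B220+ cells, 7210 to 10500 in CD31+ B220- cells, 367 to 726 in CD31- B220- cells and 879 to 952 in HSC. The 5 HSC markers summed to 15200 to 16600 in HSC and, in the same order of fractions, to 73.2 to 189, 1210 to 1790 and 477 to 662. Neutrophil markers reached 44300 to 47400 in CD31+ B220- cells and 18700 to 46000 in CD31- B220- cells. They split between these fractions. Elane and Mpo were higher in CD31+ B220- cells, by log2 differences of 3.00 and 2.44. Ltf, Camp and Ngp were lower there, by -3.22, -3.14 and -3.23, and S100a8 was not called. Erythroid markers (35700 to 42900) and stromal markers (3330 to 5610) were highest in CD31- B220- cells. The erythroid sum was 15800 to 19400 in HSC. In the same fraction order, T and NK markers summed to 58 to 155, 2280 to 4200 and 116 to 611, with Klrb1c undetected. Their sum was 362 to 603 in HSC. Monocyte and macrophage markers summed to 252 to 293, 2310 to 2570 and 2120 to 3220, against 95.2 to 97.6 in HSC. Megakaryocyte markers were highest in HSC (3000 to 3540), at 45.1 to 56.8, 860 to 1210 and 719 to 1140 in the fractions. Of 8 endothelial markers, 5 were detected on both HSC arrays (sum 5180 to 5630), and 1, 5 and 1 on every array of the CD31+ B220+ (497 to 889), CD31+ B220- (1690 to 2330) and CD31- B220- (1630 to 1670) fractions. Stab1, a scavenger receptor, was detected on all 11 arrays and was higher than HSC by 0.94 in CD31+ B220- and 0.90 in CD31- B220- cells on the log2 scale (limma, adjusted p = 0.0209 and 0.0221). In CD31+ B220+ cells Stab1 was not called (-0.54; adjusted p = 0.151). The endothelial markers split, as Tek, Emcn and Robo4 were called lower than HSC in each fraction. Cdh5, undetected in HSC, and Stab2 were higher than HSC in CD31+ B220- cells only, by 0.92 and 1.04. Kdr was called in no fraction. Tek, Emcn, Stab2 and Lyve1 were detected on no CD31+ B220+ array, Lyve1 on no CD31+ B220- array, and Cdh5, Tek, Emcn, Stab2, Lyve1 and Robo4 on no CD31- B220- array. The fractions are therefore called by their gates. In such bulk samples, fewer cells of a type and less RNA per cell cannot be told apart.

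Against HSC, the tested genes were lower in each fraction, and the 3 comparisons share the same pair of HSC arrays. The count was 7 of 7 tested genes lower in each comparison, where 25.6%, 23.7% and 28.3% of all tested genes were called lower in CD31+ B220+, CD31+ B220- and CD31- B220- cells, and 13.8% in all 3 (limma, Benjamini-Hochberg adjusted p under 0.05). Hoxa9 passed the filter through the HSC arrays alone and so had to differ, and the count is therefore a description. The median log2 difference of all genes was -0.03, -0.06 and -0.05. Each of these calls also held, and none changed direction, under the alternative scalings tried, including median scaling, under which the all-gene median became -1.21, -1.12 and -1.06 and 67.3%, 64.9% and 61.7% of all genes were called lower. Relative to those medians the genes still lay lower by log2 values from -6.61 to -2.16.

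Meis1 was high in HSC and present in every fraction at a lower level. It read 12.60 and 12.54 in HSC, 7.95, 7.72 and 7.60 in CD31+ B220+ cells, 8.91, 9.09 and 9.20 in CD31+ B220- cells, and 6.14, 6.28 and 6.60 in CD31- B220- cells. All 11 arrays detected it, and no groups overlapped. The log2 difference from HSC was -4.81 ± 0.20 (SE) in CD31+ B220+ cells (28.1-fold lower; limma, adjusted p = 9.34e-09). The value was -3.50 ± 0.20 for CD31+ B220- (11.3-fold lower; adjusted p = 2.69e-07) and -6.23 ± 0.20 in CD31- B220- cells (75.2-fold lower; adjusted p = 6.39e-09).

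**Figure D1:**
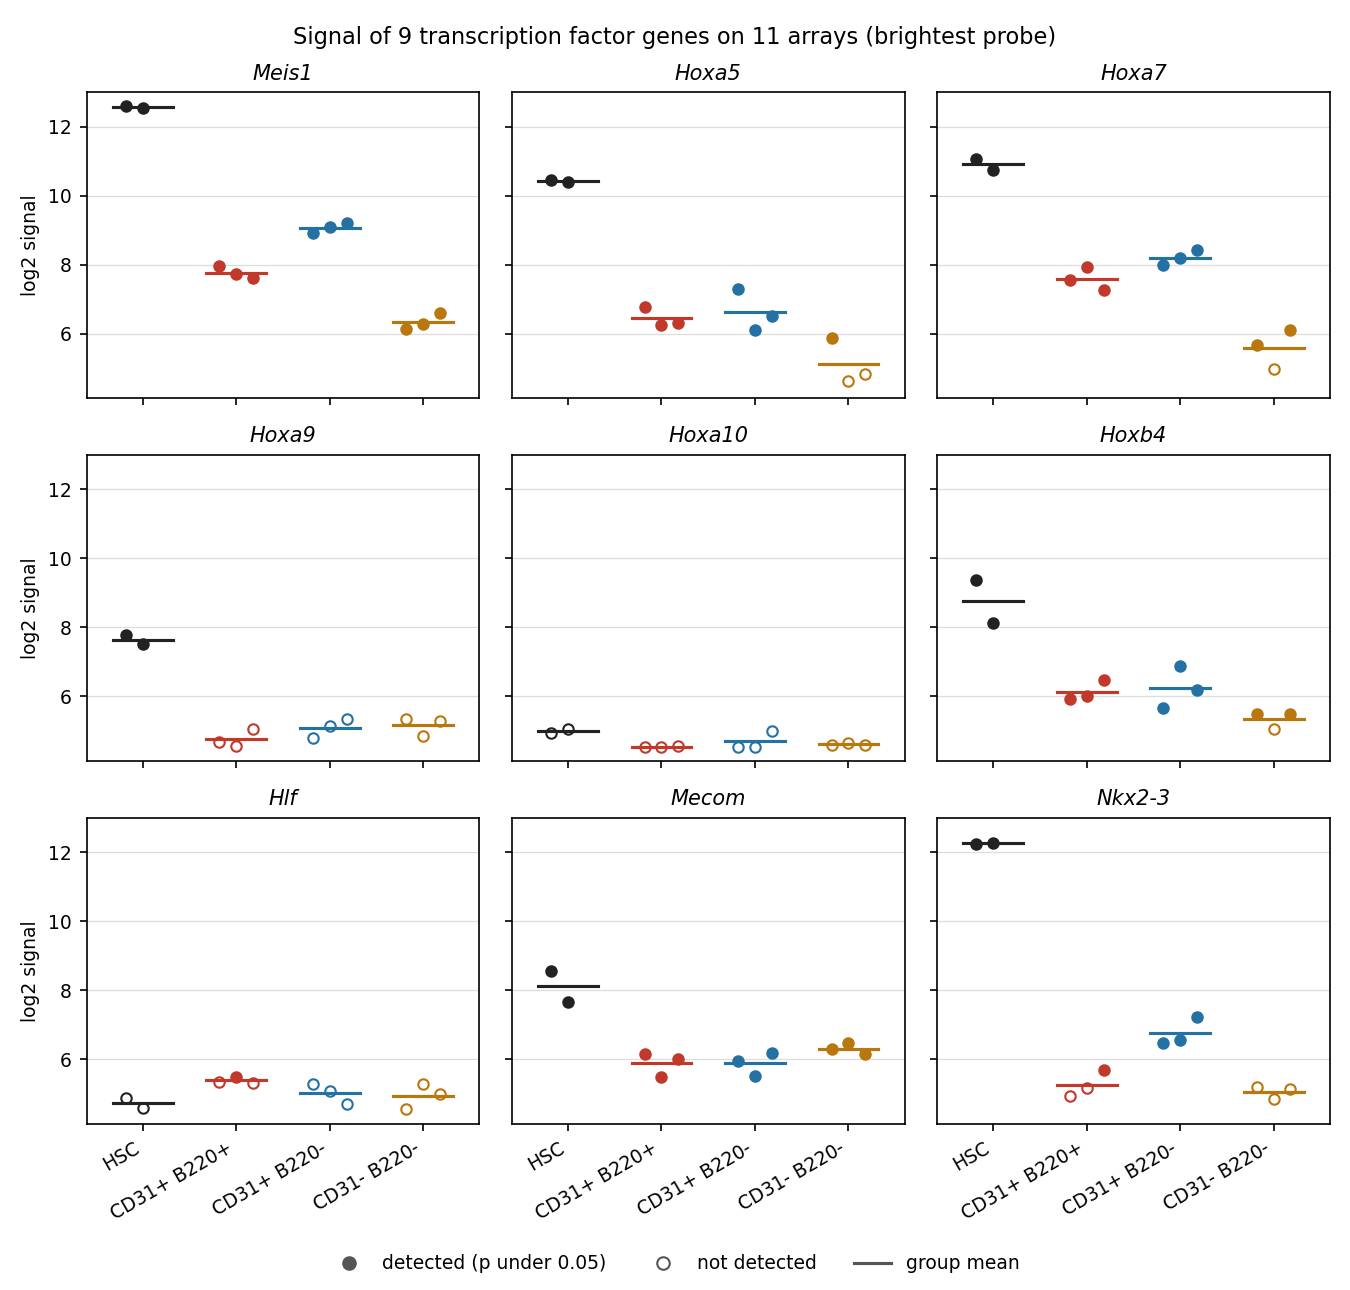
Log2 signal (vertical axis) of the brightest probe of each of the 9 genes on the 11 arrays, by group. Filled points are arrays that detected the probe at a detection p under 0.05, open points those that did not, and bars are group means; Meis1 is filled throughout, while Hoxa10 has no filled point.

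Meis1 has 3 probes on the array. The next brightest read 11.10 and 10.96 in HSC, 6.48, 6.58 and 6.36 in CD31+ B220+ cells, 6.27, 6.90 and 6.97 in CD31+ B220- cells, and 4.66, 4.56 and 4.90 in CD31- B220- cells, where no array detected it. By this probe Meis1 was 23.5-fold and 19.9-fold lower than HSC in CD31+ B220+ and CD31+ B220- cells (adjusted p = 5.97e-08 and 1.99e-07 in limma's fit of all 22233 probes, where 22.1%, 20.3% and 23.9% were called lower in the 3 fractions) and at least 46.7-fold lower in CD31- B220- cells (adjusted p = 1.02e-08). A bound of this kind sets the bright group's mean against the higher, on each dim array, of the probe's own value and the lowest value of any detected probe. The dimmest was detected on the HSC arrays alone, at 6.35 and 5.84, and was at least 1.5-fold, 1.63-fold and 1.54-fold lower in the fractions (adjusted p = 0.000539, 0.00232 and 0.000715). It passed the filter through HSC alone and had to differ, so these values add no support.

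Hoxa5, which patterns the neck and thorax of the embryo, read 10.45 and 10.40 in HSC, 6.78, 6.25 and 6.30 in CD31+ B220+ cells, 7.29, 6.12 and 6.50 in CD31+ B220- cells, and 5.87, 4.64 and 4.83 in CD31- B220- cells. HSC lay above the other groups, the CD31+ fractions overlapped, and 1 of 3 CD31- B220- arrays detected the gene. Its log2 difference from HSC was -3.98 ± 0.39 (SE; 15.8-fold lower; limma, adjusted p = 8.56e-06) for CD31+ B220+. The CD31+ B220- value was -3.79 ± 0.39 (13.9-fold lower; adjusted p = 2.03e-05), and in CD31- B220- cells -5.31 ± 0.39 (adjusted p = 9.16e-07).

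Hoxa7, a further homeodomain gene of the cluster, read 11.06 and 10.75 in HSC, 7.56, 7.93 and 7.27 in CD31+ B220+ cells, 8.0, 8.18 and 8.42 in CD31+ B220- cells, and 5.68, 4.97 and 6.10 in CD31- B220- cells. No groups overlapped, and 2 of 3 CD31- B220- arrays detected it. It was lower than HSC by -3.32 ± 0.31 (9.98-fold; limma, adjusted p = 6.13e-06), -2.70 ± 0.31 (6.52-fold; adjusted p = 4.73e-05) and -5.32 ± 0.31 (adjusted p = 1.84e-07) on the log2 scale in CD31+ B220+, CD31+ B220- and CD31- B220- cells.

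Hoxa9, which acts with Meis1 in stem cells and in leukaemia, was detected in HSC alone. It read 7.77 and 7.52 there and 4.56 to 5.36 on the other 9 arrays, with no overlap. It was at least 4.38-fold lower in CD31+ B220+ cells (limma, adjusted p = 2.25e-06), at least 4.76-fold lower in CD31+ B220- cells (adjusted p = 9.94e-06) and at least 4.49-fold lower in CD31- B220- cells (adjusted p = 7.37e-06). A second Hoxa9 probe was also detected on the HSC arrays alone, at 7.75 and 7.06 against 4.47 to 4.96 elsewhere, and was at least 3.69-fold, 4.01-fold and 3.79-fold lower. It too passed the filter through HSC alone. The dimmest was detected on no array and read 4.55 to 4.95.

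Hoxa10, the next gene of the cluster, was detected on no array by either probe. Its brighter probe read 4.94 and 5.05 in HSC, 4.53 to 4.56 in CD31+ B220+ cells, 4.54, 4.55 and 5.0 in CD31+ B220- cells, and 4.60 to 4.66 in CD31- B220- cells, and the groups overlapped. The other read 4.46 to 4.75 throughout. These values place no order on the groups.

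Hoxb4, known to expand blood stem cells when overexpressed, read 9.39 and 8.14 in HSC, 5.94, 6.00 and 6.49 in CD31+ B220+ cells, 5.67, 6.89 and 6.18 in CD31+ B220- cells, and 5.50, 5.05 and 5.50 in CD31- B220- cells. The HSC arrays stood apart from each other but above all others, the CD31+ fractions overlapped, CD31- B220- cells lay below both, and 2 of 3 CD31- B220- arrays detected it. The log2 differences from HSC were -2.62 ± 0.40 (SE; 6.15-fold lower; limma, adjusted p = 0.000256), -2.52 ± 0.40 (5.74-fold; adjusted p = 0.000438) and -3.42 ± 0.40 (adjusted p = 3.08e-05) in CD31+ B220+, CD31+ B220- and CD31- B220- cells. Without HSC replicate 1 they were -1.97, -1.87 and -2.69, and the calls held.

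**Figure D2:**
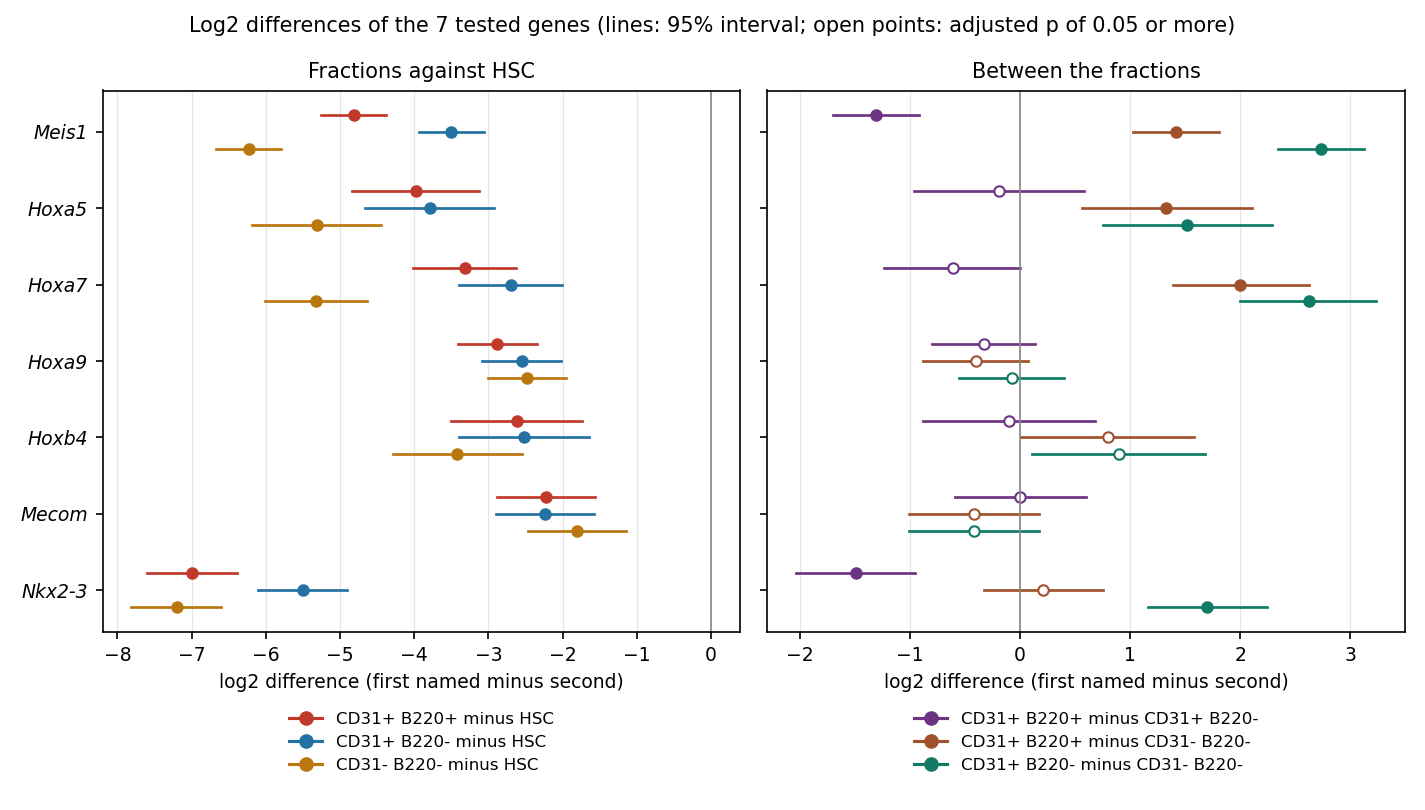
Log2 differences (horizontal axis) of the 7 tested genes with 95% intervals, against HSC on the left and between the fractions on the right. Open symbols have an adjusted p of 0.05 or more; all 7 genes lie below 0 against HSC in each fraction, and Hoxa9, Hoxb4 and Mecom are open in the 3 comparisons on the right.

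Mecom was detected on all 11 arrays. It read 8.56 and 7.67 in HSC, 6.16, 5.50 and 6.01 in CD31+ B220+ cells, 5.96, 5.53 and 6.17 in CD31+ B220- cells, and 6.30, 6.48 and 6.14 in CD31- B220- cells. HSC lay above the fractions, which overlapped. The log2 differences were -2.22 ± 0.30 (SE; 4.67-fold lower; limma, adjusted p = 0.000104), -2.23 ± 0.30 (4.69-fold; adjusted p = 0.000138) and -1.80 ± 0.30 (3.49-fold; adjusted p = 0.000432) in the same order. A second Mecom probe, at 8.32 and 7.33 in HSC, was detected on no other array (4.45 to 5.0) and was at least 4.94-fold, 5.37-fold and 5.07-fold lower, having passed the filter through HSC alone. The probes therefore differ on whether the fractions hold Mecom transcript. The remaining pair of probes was detected on HSC replicate 1 alone, at 5.55 and 6.09, against 4.87 and 4.78 on HSC replicate 2.

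Hlf, which marks stem cells in mouse marrow, had 1 probe, detected on 1 array, CD31+ B220+ replicate 2, at a detection p of 0.0492. It read 4.88 and 4.58 in HSC, 5.35, 5.50 and 5.31 in CD31+ B220+ cells, 5.29, 5.07 and 4.70 in CD31+ B220- cells, and 4.55, 5.28 and 5.0 in CD31- B220- cells. The stem cell arrays did not stand out. With no filter on dim probes, neither Hlf nor Hoxa10 was called in any of the 6 comparisons (limma); the smallest adjusted p was 0.0634 for Hoxa10 and 0.0642 for Hlf, both for CD31+ B220+ cells against HSC.

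Nkx2-3 had nearly equal values on the HSC arrays and was near the detection limit on most others. It read 12.25 and 12.27 in HSC, 4.95, 5.17 and 5.68 in CD31+ B220+ cells, 6.48, 6.55 and 7.24 in CD31+ B220- cells, and 5.19, 4.85 and 5.13 in CD31- B220- cells. The CD31+ B220- arrays all detected it and lay above the other fractions, whereas 1 of 3 CD31+ B220+ arrays and no CD31- B220- array did. The log2 difference from HSC was -6.99 ± 0.28 (SE) in CD31+ B220+ cells (limma, adjusted p = 8.14e-09) and -5.50 ± 0.28 in CD31+ B220- cells (45.2-fold lower; adjusted p = 1.32e-07). In CD31- B220- cells Nkx2-3 was at least 110-fold lower (adjusted p = 1.40e-08). A second probe read 7.61 and 7.94 in HSC and 4.60 to 5.49 elsewhere, where CD31+ B220- replicate 2 alone detected it.

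The fractions were then compared with one another, and these comparisons share arrays pairwise. An F-test over the 3 fractions called Meis1 (limma, adjusted p = 7.21e-07), Hoxa7 (2.94e-05), Nkx2-3 (0.000223) and Hoxa5 (0.00617), and 52.0% of all tested genes. It did not call Hoxb4 (0.0951), Hoxa9 (0.257) or Mecom (0.319). In CD31+ B220+ against CD31+ B220- cells 2 of 7 tested genes were lower, where 18.5% of all genes were. Against CD31- B220- cells, 3 of 7 were higher in CD31+ B220+ cells, where 22.4% of all genes were, and 4 of 7 in CD31+ B220- cells, where 16% were.

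Meis1 was 2.48-fold lower in CD31+ B220+ than in CD31+ B220- cells (limma, adjusted p = 0.000161). It was higher than in CD31- B220- cells in both, by 2.67-fold (adjusted p = 4.92e-05) and 6.64-fold (adjusted p = 7.06e-07). The second Meis1 probe gave a log2 difference of -0.24 (95% interval -0.71 to 0.23; adjusted p = 0.459) between the CD31+ fractions, so the order of these fractions rests on the first probe. Both probes placed CD31- B220- cells below the others, and the second was at least 1.99-fold and 2.35-fold higher in the CD31+ fractions (adjusted p = 4.26e-05 and 3.89e-05), where 19.4% and 11.5% of all probes were called higher.

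Nkx2-3 was lower in CD31+ B220+ than in CD31+ B220- cells by a log2 difference of -1.49 ± 0.25 (SE; limma, adjusted p = 0.000649). It was at least 2.43-fold higher in CD31+ B220- than in CD31- B220- cells (adjusted p = 0.000318). Its second probe, near the detection limit, was not called in either comparison (log2 0.08 and 0.20; adjusted p = 0.857 and 0.627). Between CD31+ B220+ and CD31- B220- cells, where 1 of 3 and 0 of 3 arrays detected the first probe, its values place no order.

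Hoxa5 and Hoxa7 were higher in both CD31+ fractions than in CD31- B220- cells. For Hoxa5 the log2 differences were 1.33 ± 0.35 (SE; limma, adjusted p = 0.00878) and 1.52 ± 0.35 (adjusted p = 0.00712), and for Hoxa7 2.00 ± 0.28 (adjusted p = 0.000119) and 2.62 ± 0.28 (adjusted p = 3.41e-05). Since 1 of 3 CD31- B220- arrays detected Hoxa5 and 2 of 3 Hoxa7, these sizes depend on values near the floor. With each CD31- B220- array at no less than its lowest detected value, Hoxa5 was 1.76-fold and 2-fold higher and Hoxa7 3.43-fold and 5.25-fold. Between the CD31+ fractions neither was called, with -0.19 (95% interval -0.96 to 0.58) for Hoxa5 and -0.61 (-1.23 to 0.00) for Hoxa7. Hoxb4 was not called between fractions, at -0.10 (-0.88 to 0.68), 0.80 (0.01 to 1.58) and 0.90 (0.11 to 1.68), nor was Mecom, at 0.00 (-0.59 to 0.60), -0.42 (-1.01 to 0.17) and -0.42 (-1.01 to 0.17). The summed HSC markers were also higher in CD31+ B220- cells than in the other fractions, at the values given above. Of the 5 markers, only Kit and Esam were called higher in CD31+ B220- cells than in both other fractions. Slamf1 was instead higher in CD31+ B220+ than in CD31+ B220- cells (log2 1.06; limma, adjusted p = 0.039). Procr and Fgd5 were not called between fractions. The part of the HSC markers in the differences of the genes followed here was not tested.

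**Figure D3:**
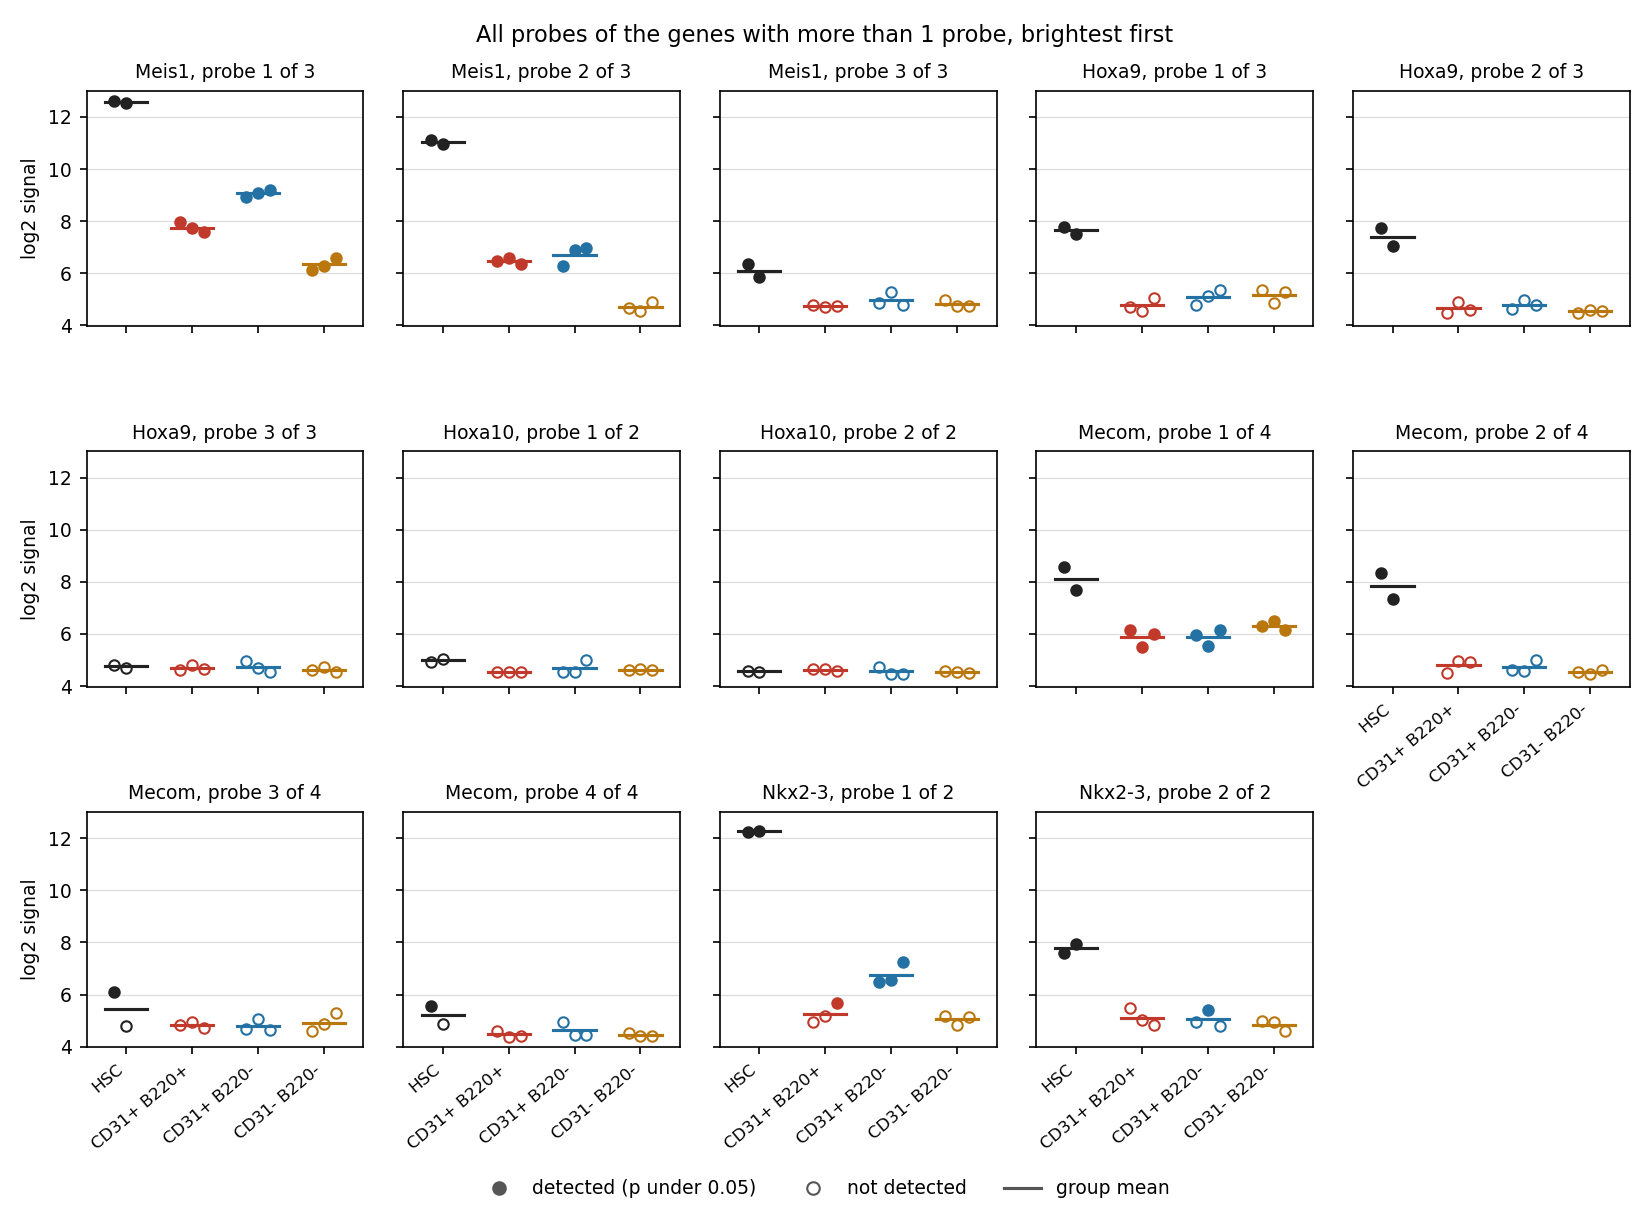
Log2 signal (vertical axis) on each of the 11 arrays for every probe of the 5 genes with more than 1 probe, by group. Filled points are arrays that detected the probe; the second probe of Mecom is filled in HSC alone, while the first is filled in every group.

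Across the Hox clusters, 38 genes had a named probe and 11 were detected on both HSC arrays, Hoxa2, Hoxa3, Hoxa5, Hoxa7, Hoxa9, Hoxb2, Hoxb3, Hoxb4, Hoxb5, Hoxc4 and Hoxc6. These were 5 of 10 Hoxa genes, 4 of 10 Hoxb genes, 2 of 9 Hoxc genes and 0 of 9 Hoxd genes. Detected on every array of the group were Hoxa4, Hoxa5, Hoxa7 and Hoxb4 in CD31+ B220+ cells, Hoxa5, Hoxa7, Hoxa13 and Hoxb4 in CD31+ B220- cells, and none in CD31- B220- cells. On the chromosome Hoxa6 lies between Hoxa5 and Hoxa7 and was detected on 1 CD31+ B220- array only. Detection on no array applied to 15 genes. For scale, 17557 and 17755 of all 45281 probes were detected on the HSC arrays, and 15063 to 17418 on the fraction arrays. Those counts are per probe and per array, while a Hox gene could count by any of its probes. The Hox counts are therefore a description, and an excess over all genes was not tested.

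**Figure D4:**
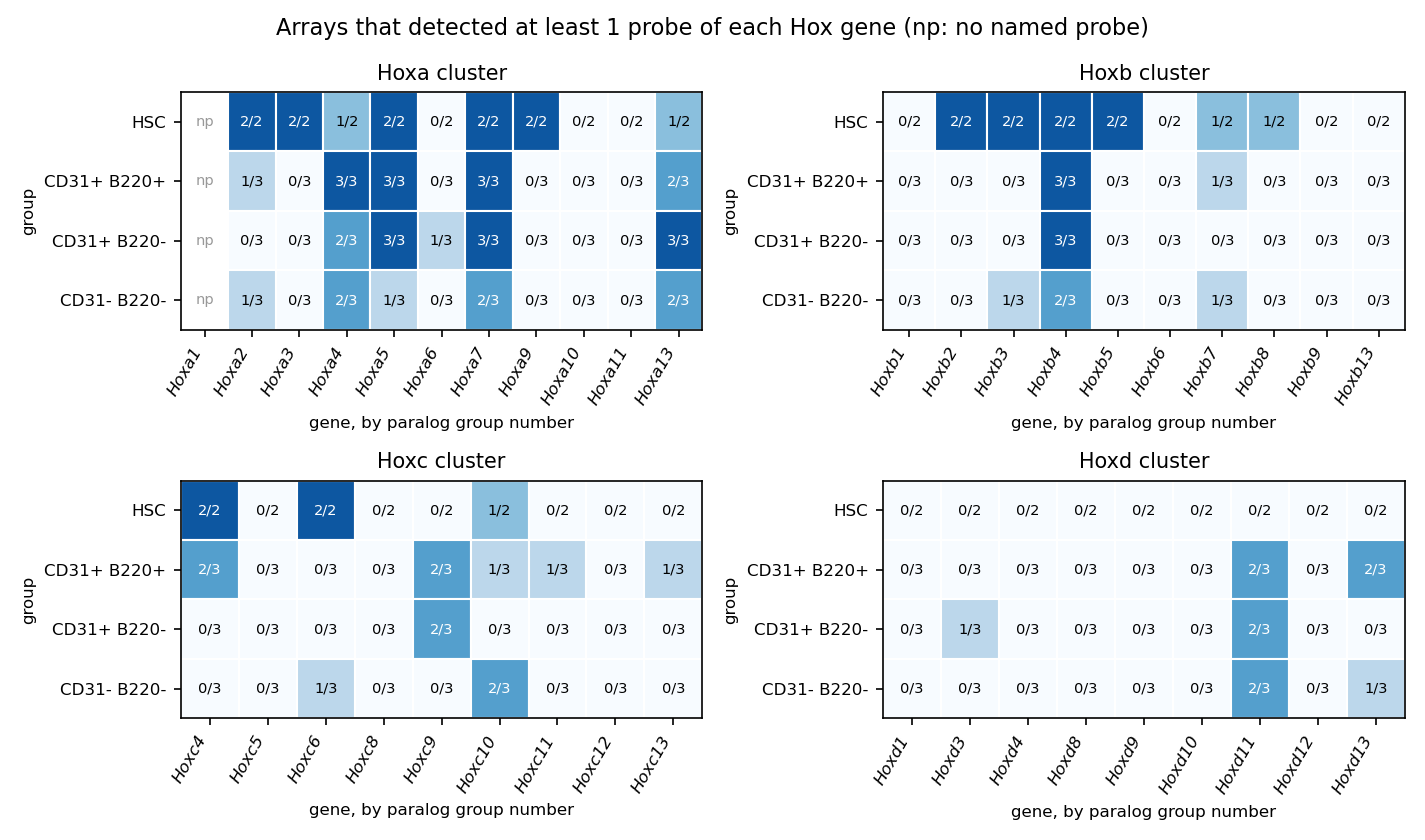
Number of arrays that detected at least 1 probe of each Hox gene, by gene (columns) and group (rows). Genes of each cluster are ordered by paralog group number, and np marks a gene with no named probe. HSC arrays detected 11 genes on both arrays, none of them a Hoxd gene.

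Of the other Hox genes 14 were tested, and 5, 5 and 4 were lower than HSC in CD31+ B220+, CD31+ B220- and CD31- B220- cells and none higher. These counts lie near the shares of all tested genes called lower, 25.6%, 23.7% and 28.3%, while 18.6%, 17.6% and 20.9% were called higher. The medians of the 14 were -0.08, -0.58 and -0.02, which became -0.03, -0.04 and -0.04 with undetected genes at their bound. Hoxb5, a gene whose expression marks long-term stem cells in mouse, was at least 8.61-fold, 9.36-fold and 8.83-fold lower (limma, adjusted p = 9.98e-09, 5.10e-08 and 2.87e-08). Hoxb2 was at least 5.08-fold, 5.52-fold and 5.21-fold lower. Both were undetected on all fraction arrays, so they too passed the filter through HSC and had to differ. Their values add no support, and the counts of lower genes, which include them, are a description.

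Among 8 tested TALE relatives of Meis1 and Pbx partners, 2 were lower than HSC in each fraction, and 1 was higher in CD31+ B220+ cells. Tgif1, a TALE repressor, was lower by -1.49 in CD31+ B220- cells and by -2.57 in CD31- B220- cells on the log2 scale (limma, adjusted p = 0.00442 and 7.32e-05). Of 17 MLL complex and Cdx activators of Hox genes, 4, 5 and 4 were lower and 3, 0 and 1 higher. Kmt2a, the MLL histone methyltransferase that maintains Hox expression, was lower by -1.07 and -1.62 in CD31+ B220- and CD31- B220- cells (adjusted p = 0.00193 and 7.35e-05), and Mllt3, an MLL fusion partner, by -2.81 and -2.86 in the CD31+ fractions (adjusted p = 8.21e-06 and 1.16e-05). Of 20 Polycomb repressors 2, 4 and 5 were lower and 4, 2 and 3 higher. Phc1, a PRC1 subunit, was lower in each, by -0.91, -1.44 and -2.94 (adjusted p = 0.0024, 0.000124 and 3.57e-07). For scale, 25.6%, 23.7% and 28.3% of all tested genes were lower and 18.6%, 17.6% and 20.9% higher. Under median scaling, the higher calls of Aff1, Dot1l, Kmt2d, Cbx7, Ezh2 and Pknox1 in CD31+ B220+ cells were lost, at log2 differences of 0.17, -0.35, -0.43, -0.44, -0.05 and -0.62, as were those of Ezh2 and Asxl1 in CD31+ B220- cells and of Dot1l, Pcgf1, Ezh2 and Suz12 in CD31- B220- cells. That of Asxl1 turned to a lower call, at -0.59 (adjusted p = 0.0382).

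Of 18 listed targets of Hoxa9 and Meis1, 8, 7 and 13 were lower and 8, 4 and 2 higher, with medians of 0.43, -0.92 and -1.83 (0.32, -0.76 and -1.62 with undetected genes at their bound). The shares of all tested genes were 25.6%, 23.7% and 28.3% lower and 18.6%, 17.6% and 20.9% higher. Under median scaling the higher calls of Camk2d and Ccnd3 in CD31+ B220- cells were lost, at log2 differences of -0.22 and 0.42 (adjusted p = 0.569 and 0.162), and that of Camk2d was also lost without either HSC array (adjusted p = 0.152 and 0.0513), without CD31+ B220- replicate 1 or 3 (0.0956 and 0.0785) and with the deposited processed values (0.0875). The list includes Kit, which the HSC gate selects on. Igf1r, a growth factor receptor, was at least 35.1-fold lower in CD31+ B220+ cells (limma, adjusted p = 6.03e-09) and 5.10-fold lower in CD31+ B220- cells (adjusted p = 6.44e-06). Sox4, a factor of early B and progenitor cells, was at least 29.1-fold lower in CD31- B220- cells (adjusted p = 8.43e-08). Trib2, a pseudokinase gene, was 11.9-fold higher in CD31+ B220+ cells (adjusted p = 6.89e-07), the fraction with the highest B lineage sum, and the part of B lineage cells in this was not tested.

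The PAR relatives of Hlf, Dbp and Tef, are clock output factors. Dbp was lower than HSC by -1.27, -2.11 and -3.25 (limma, adjusted p = 0.000134, 4.01e-06 and 1.10e-07), and Tef by -1.75 and -1.98 in CD31+ B220- and CD31- B220- cells (adjusted p = 0.00123 and 0.000379). The shares of all tested genes called against HSC were 25.6%, 23.7% and 28.3% lower and 18.6%, 17.6% and 20.9% higher. Of 9 tested PRDM relatives and partners of Mecom, 2, 3 and 3 were lower and 2, 1 and 0 higher. Under median scaling no higher call was kept, as Prdm2 in CD31+ B220+ cells went to a log2 difference of 0.00 (adjusted p = 0.996), and Prdm4 in CD31+ B220+ and Prdm2 in CD31+ B220- cells turned to lower calls at -0.69 and -0.82 (adjusted p = 0.0241 and 0.0263). Prdm16, the nearest relative of Mecom and also needed by stem cells, was at least 8.89-fold lower in CD31+ B220+ and at least 9.12-fold lower in CD31- B220- cells (adjusted p = 4.35e-08 and 8.50e-08), and differed by -3.16 in CD31+ B220- cells (2 of 3 arrays detected; adjusted p = 7.17e-07). Gata2, a stem cell factor and Mecom target, differed by -7.23, -2.99 and -6.04 (adjusted p = 1.17e-08, 2.13e-05 and 7.33e-08). Of the NK-like relatives of Nkx2-3 only Hhex and Hlx were tested. Hhex was lower by -0.78, -1.38 and -2.51, the first of which was not called without HSC replicate 1 or 2 (adjusted p = 0.0886 and 0.0614). Hlx was higher by 2.54, 2.63 and 1.79, the last of which was 0.44 and not called under median scaling (adjusted p = 0.204).

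**Figure D5:**
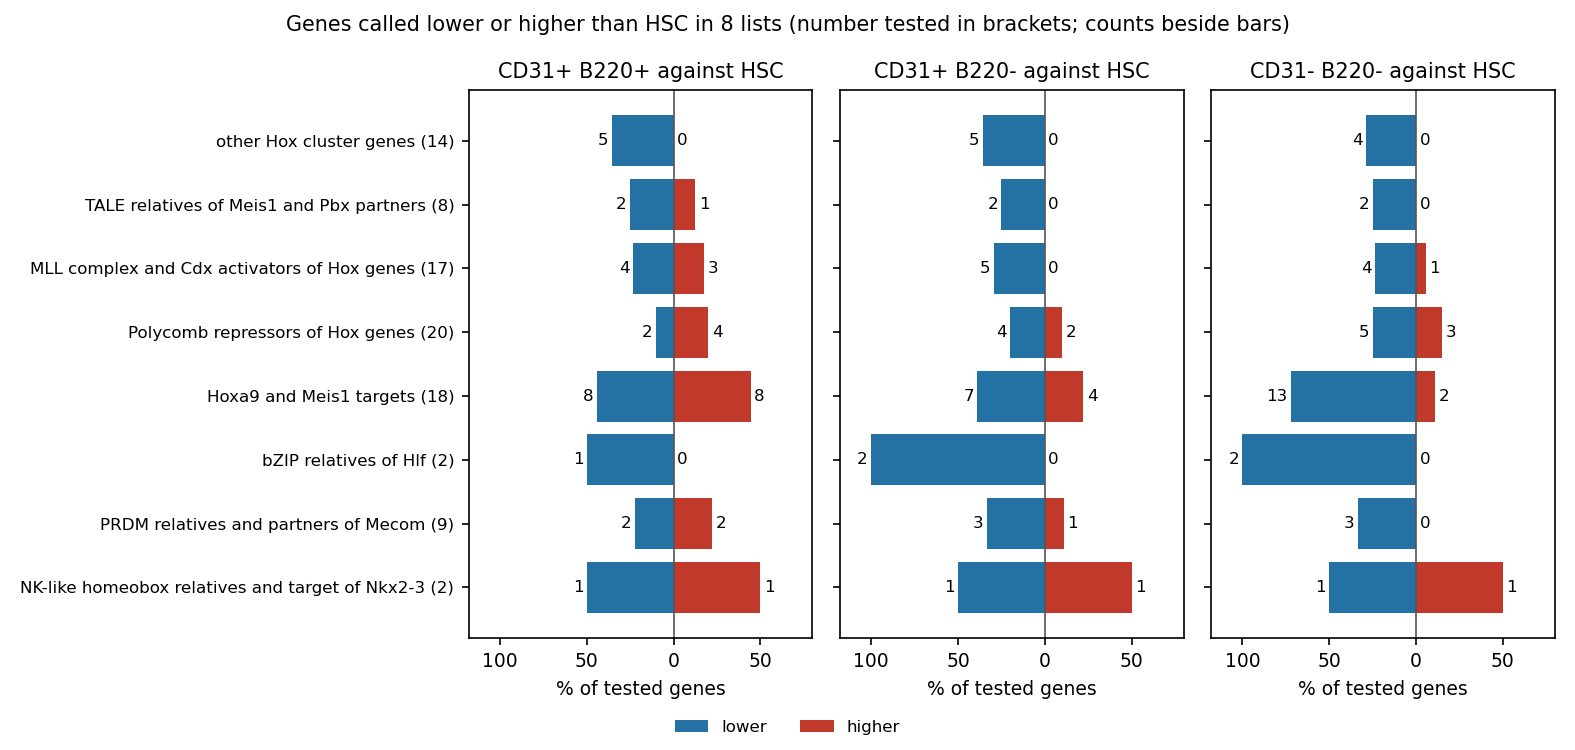
Genes lower and higher than HSC (adjusted p under 0.05) in 8 gene lists and each fraction, as percent of the tested genes of the list. The other Hox genes have no higher call in any fraction.

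Genes with the most similar profiles were found by the root-mean-square difference of centred log2 values over the 11 arrays, as a description. Nearest to Meis1 were Robo4, a receptor of endothelium and stem cells (0.36), Fnbp1l (0.52) and Hoxa7 (0.56). Robo4 was also nearest to Nkx2-3 (0.64), followed by Gucy1a1 (0.66) and Esam, a junction protein (0.69). Nearest to Hoxa7 were Prodh (0.27), Stat4 (0.31) and Tle6 (0.33), and to Hoxa5 Csgalnact1 (0.47), Fnbp1l (0.53) and Pnkd (0.59). Hoxb4 was nearest to Asah2 (0.41), C77080 (0.42) and Smarca2 (0.44), Hoxa9 to Sirt3 (0.21), Sall2 (0.21) and Six5 (0.22), and Mecom to Clstn1, Enho and Unc45bos (0.29 each). Among the 7 genes themselves Hoxa9 and Mecom were nearest (0.40) and Mecom and Nkx2-3 farthest apart (1.94).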

How the data were processed

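Bead intensity and a detection score were deposited for 11 arrays. Per the file headers the table is not normalized, and the deposited score, a fraction from 0 to 1, behaves as 1 minus the detection p (lowest Spearman correlation with intensity 0.987). The authors' processed log2 values (1.57 to 14.89) served as an alternative, made by an unstated normalization. The submitters' processing notes name lumi 1.1.0 with no role. Of 45281 probes, 34885 carried 1 symbol, 18 several and 10378 none.

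Intensities were corrected and quantile-normalized with neqc (limma 3.58.1, R 4.3.3, offset 16, background estimated from detection p). Each gene took its probe with the highest mean over all arrays, and was kept if that probe was detected on at least 2 arrays. A gene whose brightest probe failed was left out, even where another of its probes passed. The 11381 genes kept were fitted with 4 group means over 11 arrays and adjusted by Benjamini-Hochberg. Further probes came from a fit of 22233 probes. On simulated data of 11381 genes, 85% to 94% of log2 changes of 2 and 26% to 48% of log2 changes of 1 were recovered over the 6 comparisons, and 3.88% to 8.45% of calls were false, above 5% in 4 of them. The simulation used normal noise and changed only a small share of genes, whereas 28.1% to 49.2% were called in the data. These rates therefore need not hold here. The number of arrays limits the precision. Replicates are not stated to be separate animals, so p-values measure the spread between these samples, which may be technical. The 9 genes and all lists were chosen with earlier results of these data known. Named beyond the 9 were up to 3 called genes per list, comparison and direction with the largest change, and the 3 nearest profiles per tested gene. Promoters were read with Python 3.11.15. Alternatives varied background correction, scaling, filter, probes, arrays in the fit and single arrays. Taking log2 before quantile normalization was added after seeing the data.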

Additional observations from a re-analysis of the deposited data

How the results depend on the processing

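The 7 tested genes stayed lower than HSC, and called, in all 432 alternative values over 21 settings (highest adjusted p 0.0067 in limma, log2 differences -8.46 to -1.04), except that Hoxa9 could not be tested without an HSC array or with detection on at least 3 arrays. The Hoxa9 values among the 432 add no support, since Hoxa9 passed the filter through HSC alone. Counts of genes called moved under median scaling to 8446 (5029 in the reported fit) and 8298 (4704) for CD31+ B220+ and CD31+ B220- against HSC. There the share of calls that were higher fell from 42.1%, 42.7% and 42.4% against HSC to 9.24%, 10.8% and 13.4%, and from 47.5% to 36.3% between the CD31+ fractions. With all probes singly 8978, 7893, 9533, 6515 and 8412 were called in the first 5 comparisons, where 22233 features were tested. Leaving out 1 array gave 3349 to 5198 and 2876 to 4872 for the first 2, lowest without HSC replicate 1. Between the CD31+ fractions Mecom was -0.08 under median scaling, and leaving out 1 array gave -0.17 to 0.20 for Mecom, -0.39 to 0.22 for Hoxb4 and -0.45 to 0.14 for Hoxa5. Hoxa9 between CD31+ B220- and CD31- B220- cells ran from -0.24 to 0.08. None of these was called. Hoxa7 between the CD31+ fractions was called without background correction (-0.41, adjusted p = 0.035) and under median scaling (-0.75, adjusted p = 0.026). Hoxb4 was called against CD31- B220- cells in CD31+ B220+ cells with only those groups fitted (0.80, adjusted p = 0.0255) and in CD31+ B220- cells without CD31+ B220- replicate 1 (1.2, adjusted p = 0.0385). The cause was not tested. No pairing by replicate number was used in the reported fit. Deviations of same-numbered arrays correlated at -0.07 to 0.179, and 1 of 15 pairs exceeded 0.1. Those of differently numbered arrays correlated at -0.15 to 0.151, and 2 of 30 exceeded 0.1. With so few arrays per group these values cannot exclude that same-numbered samples were paired. With the replicate block, 4802, 4417, 5342, 3880, 5015 and 3052 genes were called, and no call of the 7 genes changed.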
